A study of Mus musculus with 2 samples.

Results

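The microRNA (miRNA) genes for miR-142, miR-146a, miR-146b, miR-150, miR-155 and miR-223 were examined in mouse hippocampus because of their links to microglia and other immune cells. They were chosen by name as immune-cell miRNAs and make up 6 of the 2202 annotated miRNA genes in the deposited tables: Mir142, Mir146 (which encodes miR-146a), Mir146b, Mir150, Mir155 and Mir223. Small RNAs had been sequenced from 2 libraries of 1 group, biological replicates 2 and 1, of female B6CASTF1/J mice aged 2 months. These animals are first-generation hybrids between a C57BL/6 laboratory strain and a castaneus-derived strain. The labels give the tissue as a layer of the hippocampus without naming the layer, list no treatment, mutation or control group, and refer both libraries to the same donor record, so the spread between them may be partly technical. With no second condition, the data give the levels of these miRNAs in this tissue and how far the replicates differ. Replicate 2 held 5979247 sense-strand reads on miRNA genes and replicate 1 held 4517648, and levels are given as counts per 1000000 of these (CPM), so that 1 read is worth 0.167 CPM in replicate 2 and 0.221 CPM in replicate 1. The libraries are bulk tissue, in which fewer cells of a type and less of the miRNA per cell cannot be told apart, and no messenger RNA was measured with which the cells could be named.

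A mature miRNA is cut from a hairpin precursor and guides the silencing complex to messenger RNAs, mainly through its seed, bases 2 to 8 from the 5′ end. Microglia are the resident macrophages of the brain and descend from yolk sac precursors, whereas lymphocytes, monocytes and neutrophils reach the healthy brain mainly within blood vessels and at its borders. miR-142 is made across blood cell lineages, microglia included. miR-146a and miR-146b are induced by NF-κB and restrain it by repressing the signalling proteins Traf6 and Irak1, while miR-155 is induced in activated macrophages, microglia and lymphocytes. miR-150 is characteristic of mature B and T cells, where it represses the transcription factor gene Myb, and miR-223 is characteristic of neutrophils and monocytes.

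The mature sequences show how far these genes differ from each other. They are given from RefSeq (build GRCm38.p6), 5′ to 3′, with the seed in capitals; all 6 genes matched the RefSeq table, with 11 mature sequences carrying 10 different seeds, and Mir150 is covered by miR-150-3p alone.
miR-142a-5p: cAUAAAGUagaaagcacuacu
miR-142a-3p: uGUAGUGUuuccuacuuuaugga
miR-146a-5p: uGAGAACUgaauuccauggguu
miR-146b-5p: uGAGAACUgaauuccauaggcu
miR-150-3p: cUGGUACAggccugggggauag
miR-155-5p: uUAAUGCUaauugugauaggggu
miR-223-3p: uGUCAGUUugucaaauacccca
The seed of miR-146a-5p and miR-146b-5p was the 1 seed that these genes had in common. Over the 1679 mature names of the table, no other miRNA carried that seed, and none shared a seed with miR-142a, miR-150-3p, miR-155 or miR-223. The other arm of miR-150 has no entry there, so its seed was not compared. miR-146a-5p and miR-146b-5p are 22 bases long, have their first 17 bases in common and differ by G18A and U21C, with positions counted from the 5′ end and the base of miR-146a-5p first. A read that ends within those 17 bases cannot be given to either gene.

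The hairpins of Mir146 and Mir146b share a run of 21 bases around that arm, printed here in capitals because it marks where their reads could be confused.
Mir146 hairpin: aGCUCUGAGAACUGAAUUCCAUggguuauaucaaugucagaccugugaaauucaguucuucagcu
Mir146b hairpin: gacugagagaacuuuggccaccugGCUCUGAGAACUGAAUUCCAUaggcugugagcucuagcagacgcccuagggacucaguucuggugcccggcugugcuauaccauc
Hairpins were compared for the 5 genes other than Mir150. Among the 1005 hairpins of the table, the longest run shared with a gene at another position was 13 bases for Mir142, 12 for Mir223 and 11 for Mir155.

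In the GENCODE M21 annotation of build mm10, Mir142 (ENSMUSG00000105196.1) lies on chromosome 11 (87756864 to 87756927, plus strand) in an intron of the long non-coding gene Mir142hg. Mir146 (ENSMUSG00000065601.1) lies elsewhere on chromosome 11 (43374397 to 43374461, minus strand) between genes, 11021 bases from the nearest other gene. Mir146b (ENSMUSG00000070127.2) sits in an intron of the protein-coding gene Mfsd13a on chromosome 19 (46342762 to 46342870, plus strand). Mir155 (ENSMUSG00000065397.1) sits in an exon of its non-coding host gene Mir155hg on chromosome 16 (84714140 to 84714204, plus strand). Mir150 (ENSMUSG00000065495.1) lies between genes on chromosome 7 (45121757 to 45121821, plus strand), and Mir223 (ENSMUSG00000076066.1) lies within an exon of F630028O10Rik, annotated as an antisense RNA gene, on chromosome X (96242817 to 96242926, plus strand). No pair of these genes lies within 1 cluster.

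All 6 genes were counted in both libraries, and together they held 0.191% ± 0.0213 of the miRNA counts (SD, n = 2). They held 12349 counts, or 0.207% (95% Wilson interval 0.203 to 0.210), in replicate 2 and 7968 counts, or 0.176% (0.173 to 0.180), in replicate 1. Mir150 and Mir146 made up nearly all of this. Mir150 took 54.0% of the summed counts of the 6 genes in replicate 2 and 57.2% in replicate 1, and Mir146 took 41.0% in replicate 2 and 36.0% in replicate 1. The remaining 4 genes, which include the pan-leukocyte, myeloid and activation-linked miRNAs, stood at 71.1 CPM or less in each library.

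Among the miRNAs linked to resident microglia and inflammation, Mir146 was the abundant one. Its 5060 counts in replicate 2 correspond to 846 CPM (95% Wilson interval 823 to 870), and its 2870 counts in replicate 1 to 635 CPM (612 to 659). It ranked 113 by mean CPM among the 774 genes with any count, and its intervals did not overlap between the libraries. Mir146b, its paralogue with the same seed, had 14 counts, or 2.34 CPM (1.39 to 3.93), in replicate 2 and 9 counts, or 1.99 CPM (1.05 to 3.79), in replicate 1. The intervals for Mir146b overlapped almost fully. The ratio of Mir146b to Mir146 counts was 0.00277 (95% exact interval 0.00151 to 0.00465) in replicate 2 and 0.00314 (0.00143 to 0.00596) in replicate 1. Nearly all counts given to this seed family stood at the Mir146 locus, within the limit set by the shared bases. Mir155, the activation-induced miRNA, had 150 counts, or 25.1 CPM (21.4 to 29.4), in replicate 2 and 126 counts, or 27.9 CPM (23.4 to 33.2), in replicate 1. Its intervals overlapped widely, and it stood at rank 265.

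The pan-leukocyte gene Mir142 had 366 counts, or 61.2 CPM (95% Wilson interval 55.3 to 67.8), in replicate 2 and 321 counts, or 71.1 CPM (63.7 to 79.3), in replicate 1. These intervals overlap, and the gene ranked 220. Mir142 is the 1 gene of the 6 that another annotated miRNA gene overlaps on the opposite strand. Its whole hairpin of 64 bases lies inside that of Mir142b (ENSMUSG00000065420.2, chromosome 11, 87756841 to 87756955, minus strand). Both mature arms of Mir142 are in capitals in the first sequence and the mature miR-142b in the second, to show the overlap.
Mir142 hairpin: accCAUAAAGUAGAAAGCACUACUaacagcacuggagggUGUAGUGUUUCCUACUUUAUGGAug
Mir142b hairpin: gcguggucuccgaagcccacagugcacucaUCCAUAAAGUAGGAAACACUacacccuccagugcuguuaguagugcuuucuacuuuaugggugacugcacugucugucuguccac
All 20 bases of miR-142b match the reverse complement of miR-142a-3p, so only strand separates their reads. Mir142b had 0 sense counts in both libraries, which allows up to 0.502 CPM in replicate 2 and 0.664 CPM in replicate 1. In the deposited column without regard to strand, where reads on overlapping genes are ambiguous, Mir142 itself had 0 counts in both libraries. The level of Mir142 can therefore be read from the sense column only.

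Mir150, listed here as lymphoid, was the most abundant of the 6. Its mean was 1062 CPM, against 66.1 CPM for the pan-leukocyte gene Mir142. Which cells held Mir150 or Mir146 was not tested. The 6669 counts of Mir150 in replicate 2 correspond to 1115 CPM (95% Wilson interval 1089 to 1142). Its 4557 counts in replicate 1 correspond to 1009 CPM (980 to 1038). It ranked 91 among the genes with any count, and the intervals of the libraries did not overlap. The myeloid gene Mir223 had 90 counts, or 15.1 CPM (12.2 to 18.5), in replicate 2 and 85 counts, or 18.8 CPM (15.2 to 23.3), in replicate 1. It stood at rank 286, and its intervals overlapped.

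**Figure D1:**
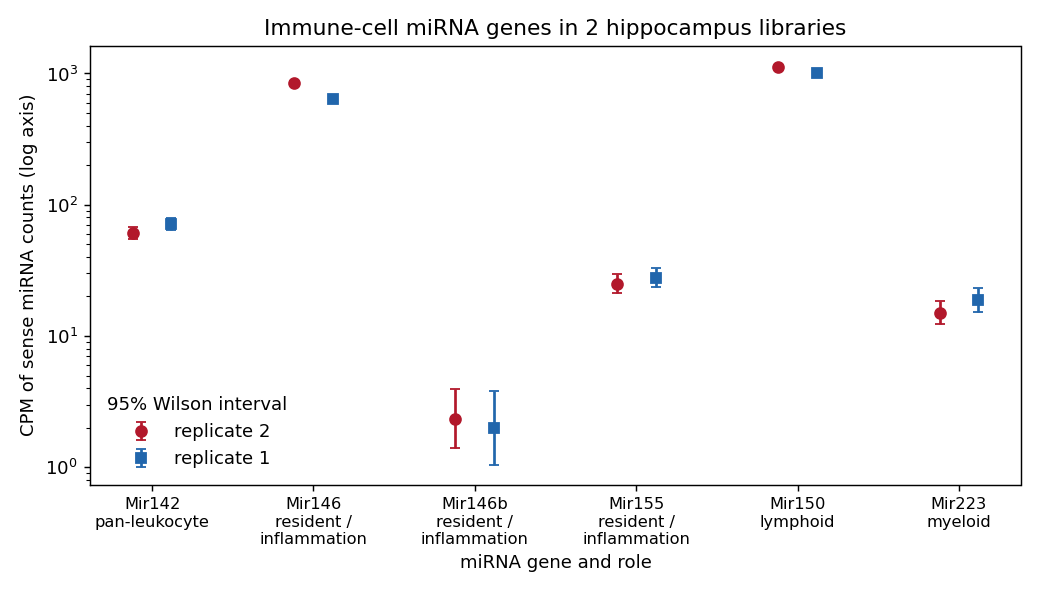
Level of each of the 6 immune-cell miRNA genes in CPM of sense miRNA counts (log axis), with replicate 2 as circles, replicate 1 as squares and bars for the 95% Wilson interval of counting error. Mir150 and Mir146 lie between 635 and 1115 CPM, Mir142, Mir155 and Mir223 between 15.1 and 71.1 CPM, and Mir146b lies at 2.34 CPM (replicate 2) and 1.99 CPM (replicate 1).

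By mean level the order was Mir150 (1062 ± 75.4 CPM, SD, n = 2), Mir146 (741 ± 149 CPM), Mir142 (66.1 ± 6.96 CPM), Mir155 (26.5 ± 1.98 CPM), Mir223 (16.9 ± 2.66 CPM) and Mir146b (2.17 ± 0.247 CPM). The order was the same in each library, and the ranges of neighbouring genes over the 2 libraries did not overlap. The largest step was between Mir146 and Mir142, a factor of 11.2, and the smallest were between Mir150 and Mir146, a factor of 1.43, and between Mir155 and Mir223, a factor of 1.56. A read spans a mature miRNA, so CPM was not divided by length. On the scale of CPM per 100 bases of annotated hairpin all 6 genes kept their place. How efficiently each miRNA enters a library was not measured here, so steps of this size between genes carry an unknown error of that kind.

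The genes listed as resident microglial and inflammation-linked were compared with those listed as lymphoid and myeloid by ratios of counts within each library. These ratios do not depend on the library total. Mir146, Mir146b and Mir155 summed to 0.783 times Mir150 in replicate 2 (95% exact interval 0.755 to 0.812) and 0.659 times in replicate 1 (0.630 to 0.691). Mir150 thus exceeded the 3 inflammation-linked genes together in both libraries, though by different margins, and the intervals did not overlap. Mir146 gave 5060 of the 5224 counts of the sum in replicate 2 and 2870 of 3005 in replicate 1. The ratios of this sum therefore mostly restate Mir146 and do not measure a balance of cell types. Against the myeloid gene Mir223, the same sum was 58.0 times as high in replicate 2 (47.1 to 72.3) and 35.4 times as high in replicate 1 (28.5 to 44.4). Mir150 itself was counted 74.1 times as often as Mir223 in replicate 2 (60.2 to 92.3) and 53.6 times in replicate 1 (43.3 to 67.3), with overlapping intervals.

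Among the low-level genes the proportions differed between the libraries by less than counting error. Mir142 was 4.07 times Mir223 in replicate 2 (95% exact interval 3.22 to 5.18) and 3.78 times in replicate 1 (2.96 to 4.85). Mir155 was 0.410 times Mir142 in replicate 2 (0.337 to 0.497) and 0.393 times in replicate 1 (0.317 to 0.484). Both pairs of intervals overlapped over most of their width. Mir146, in contrast, was 13.8 times Mir142 in replicate 2 (12.4 to 15.4) and 8.94 times in replicate 1 (7.96 to 10.1). It was 0.759 times Mir150 in replicate 2 (0.731 to 0.787) and 0.630 times in replicate 1 (0.601 to 0.660). Mir142 stood at 0.0549 times Mir150 in replicate 2 (0.0493 to 0.0610) and 0.0704 times in replicate 1 (0.0627 to 0.0789). In these last 3 pairs the intervals of the libraries did not overlap, so the balance of the set differed between the replicates by more than counting error.

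**Figure D2:**
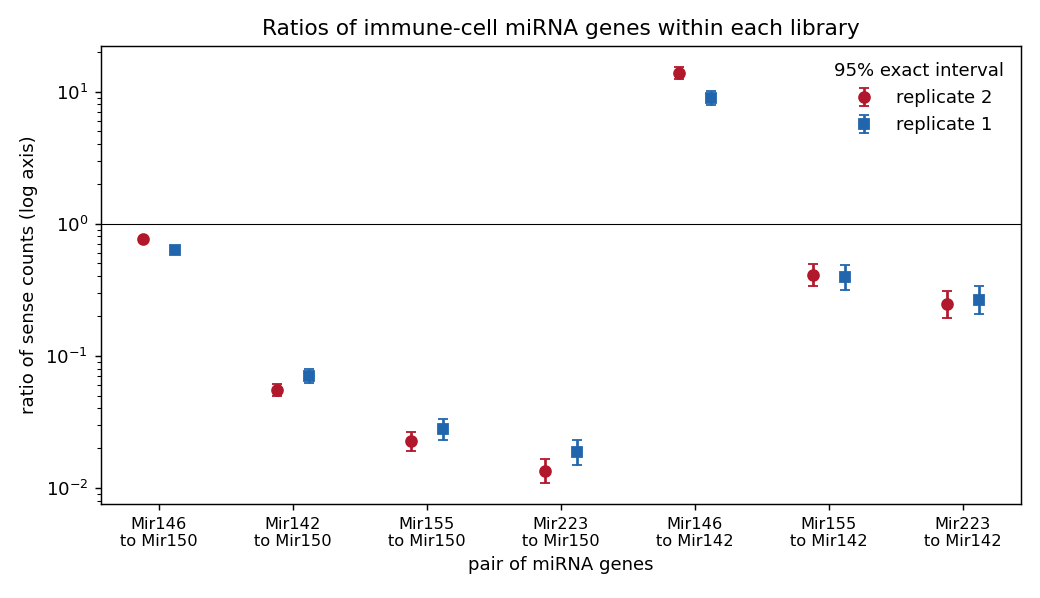
Ratio of sense counts between pairs of immune-cell miRNA genes within each library (log axis), with replicate 2 as circles, replicate 1 as squares, 95% exact binomial intervals as bars and a line at equal counts. Mir146 to Mir142 stands apart between the libraries, at 13.8 in replicate 2 and 8.94 in replicate 1, whereas Mir155 to Mir142, at 0.410 in replicate 2 and 0.393 in replicate 1, does not.

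Between the replicates, Mir146 and Mir150 were higher in replicate 2 and no member passed as lower. A two-sided Fisher's exact test set each gene against the rest of the miRNA counts, with Benjamini-Hochberg adjustment over the 420 genes with 10 or more counts in each library. The test compares these 2 libraries and no condition. Mir146 was 1.33-fold higher in replicate 2, a log2 ratio of 0.41 (95% exact interval 0.35 to 0.48; adjusted p = 1.15e-34). Mir150 was 1.11-fold higher, a log2 ratio of 0.14 (0.09 to 0.20; adjusted p = 4.25e-07 with the same test). Of the 5 members that could be tested, 2 were higher, 0 lower and 3 did not pass, and at an unadjusted p under 0.05 the count lower was 0 as well. With the exact binomial test at TMM or DESeq2 scaling it was also 0, and with all reads of the table as the total it was 1, Mir142 (Fisher's exact test, adjusted p = 0.0162). Over all tested genes, 56.9% passed in either direction, 27.1% as higher and 29.8% as lower in replicate 2, so 2 of 5 members higher is a count near the background.

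Mir142, Mir155 and Mir223 had point estimates on the other side. The log2 ratio of Mir142 was -0.21 (95% exact interval -0.44 to 0.01; adjusted p = 0.0903), that of Mir155 was -0.15 (-0.50 to 0.20; adjusted p = 0.501) and that of Mir223 was -0.31 (-0.77 to 0.12; adjusted p = 0.219). These intervals span 0 and still allow a difference of the size seen over all tested genes, whose median absolute log2 ratio was 0.30, or 1.23-fold. Mir146b, with 9 counts in replicate 1, fell below the count minimum; its log2 ratio was 0.19 (-1.08 to 1.62). More of the abundant genes passed: 83.1% of the 195 tested genes at 100 CPM or more on average passed, and 34.2% of the 225 below. Mir146 and Mir150 belong to the first class and the other 3 tested members to the second.

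In size, none of these differences stood out. Of the tested genes, 59.8% had a smaller absolute log2 ratio than Mir146 and 27.4% a smaller one than Mir150. For Mir223, Mir142 and Mir155 the shares were 51.9%, 39.0% and 28.3%. The median log2 ratio of the 5 tested members was -0.15, against -0.07 over all 420 tested genes. It has the opposite sign to the summed counts of all 6 members, which were 1.17-fold higher in replicate 2, since Mir146 and Mir150 hold most of the counts. The spread between the replicates over the tested genes, estimated with edgeR as a common dispersion, corresponded to a coefficient of variation of 31.2%.

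**Figure D3:**
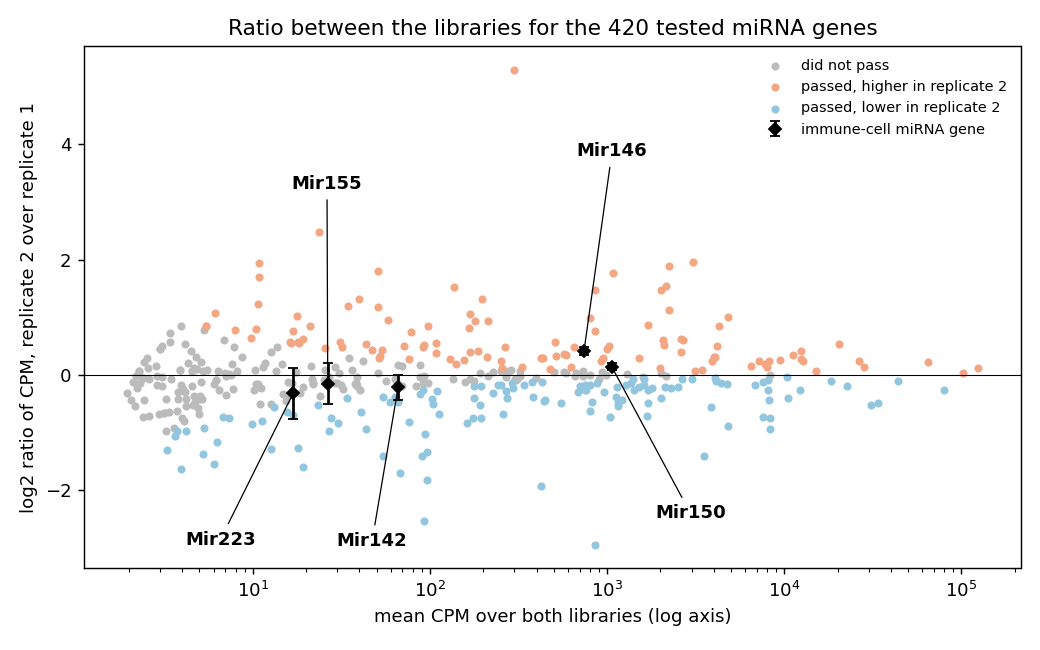
Log2 ratio of CPM, replicate 2 over replicate 1, against mean CPM (log axis) for the 420 tested genes, coloured by whether they passed Fisher's exact test after adjustment; diamonds with 95% exact intervals are the 5 tested immune-cell miRNA genes. The 5 diamonds lie within the band of the other genes, with Mir146 at 0.41 and Mir223 at -0.31 as their extremes.

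Other miRNAs linked to lymphocytes ranged from 15.5 CPM on average for Mir181b-1 to 2058 CPM for Mir342. This list of 9 genes held 1.00% of the miRNA counts in replicate 2 and 0.850% in replicate 1. All 9 were tested, 5 were higher in replicate 2, 2 were lower and 2 did not pass, with a median log2 ratio of 0.12. The share passing over all tested genes was 56.9%, and 83.1% at 100 CPM or more, where 7 of these 9 genes lie, so 7 of 9 passing is near the background at this level. As higher in replicate 2, 27.1% of all tested genes passed, and 77 of the 195 at 100 CPM or more. Whether 5 of 9 higher differs from these shares was not tested. Mir342, which is linked to B cells, had 14879 counts in replicate 2 and 7355 in replicate 1 (log2 ratio 0.61, 95% exact interval 0.57 to 0.65). Mir31, described in T cells, had the largest fold of the list, with 1261 CPM in replicate 2 and 456 CPM in replicate 1 (2.77-fold higher in replicate 2). Mir28a, linked to germinal centre B cells, had 994 CPM in replicate 2, against 989 CPM in replicate 1, and did not pass (Fisher's exact test, adjusted p = 0.898). The Mir181 genes, which tune T cell receptor signalling but are also expressed in neurons, moved both ways. Mir181a-1, Mir181a-2 and Mir181c were higher in replicate 2, Mir181b-2 and Mir181d lower, and Mir181b-1 did not pass. Within this list, 4 of the 7 genes with a hairpin in the RefSeq table, all of them Mir181a and Mir181b genes, share 20 or more bases with a copy, so their counts are uncertain.

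Other myeloid-linked miRNAs ranged widely. Mir424 is not annotated under that symbol, so 7 of the 8 listed genes were available, and they held 1.00% of the counts in replicate 2 and 1.16% in replicate 1. Mir23a alone gave 37174 of these 60049 counts in replicate 2 and 47171 of 52509 in replicate 1. The share of the list therefore mostly restates Mir23a and does not measure myeloid cells. Of the 5 tested genes, 2 were higher in replicate 2, 1 was lower and 2 did not pass, with a median log2 ratio of 0.40; 3 of 5 passing is near the 56.9% over all tested genes. Mir21a, an abundant miRNA of macrophages and many reactive cells, had 3537 CPM in replicate 2 and 957 CPM in replicate 1, a log2 ratio of 1.89 (95% exact interval 1.84 to 1.93). Mir23a was lower in replicate 2, at 6217 CPM, against 10442 CPM in replicate 1, while Mir27a of the same cluster was 1.32-fold higher; both share 20 bases with a gene of the paralogous cluster. Mir24-2, the third gene of that cluster, measured 73.1 CPM in replicate 2, against 65.3 CPM in replicate 1, did not pass (Fisher's exact test, adjusted p = 0.206) and shares 30 bases with another hairpin. The counts of all 3 are uncertain. Mir503 was at 16.1 CPM in replicate 2, against 11.3 CPM in replicate 1, and did not pass either. The other two genes were counted at very low levels. Mir511, which lies within the mannose receptor gene Mrc1 of border-associated macrophages, had 21 counts in replicate 2 and 3 in replicate 1. Mir147, induced through Toll-like receptors, had 23 counts in replicate 2 and 8 in replicate 1. Neither reached the minimum for the test.

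Red cell miRNAs, which mark blood in a tissue, were summed beside these values. The 4 annotated genes of the list summed to 852 counts, or 142 CPM, in replicate 2 and 431 counts, or 95.4 CPM, in replicate 1. Mir451a was 98.0 CPM in replicate 2, against 58.2 CPM in replicate 1, a log2 ratio of 0.75 (95% exact interval 0.54 to 0.97), and Mir144 was 23.4 CPM in replicate 2, against 15.1 CPM in replicate 1 (log2 ratio 0.62, 0.21 to 1.08). Both passed Fisher's exact test as higher in replicate 2, Mir486 did not (adjusted p = 0.826), and Mir451b was at 0 in both libraries. Mir486b is not annotated under that symbol. Mir486 has no hairpin in the RefSeq table, so whether it shares bases with a copy was not examined. Mir150 and Mir146 were higher in the same library as Mir451a and Mir144, whereas the point estimates of Mir142, Mir155 and Mir223 were lower in it. Markers of other cells moved both ways. Of the tested genes, the endothelial list had 1 of 1 higher in replicate 2 (Mir126a, 1.20-fold). The mural list had 1 of 2 higher (Mir143, 1.11-fold), and Mir145a, at 0.949-fold, did not pass. Among 4 tested markers of ependyma and choroid plexus, Mir34c at 1.41-fold and Mir204 at 1.37-fold were higher, while Mir34b at 0.768-fold and Mir449a at 0.993-fold did not pass. The neuron list had 1 of 7 higher, 5 lower and 1 that did not pass, and the oligodendrocyte list had 1 of 3 higher (Mir219a-2), 1 lower (Mir338) and 1 that did not pass. The neuron genes Mir124a-1, Mir124a-2 and Mir124a-3, at 13 counts or fewer in each library, did not reach the minimum for the test. Over all tested genes 56.9% passed, 27.1% as higher and 29.8% as lower in replicate 2. The share was 83.1% at 100 CPM or more on average, where all tested neuron genes lie, and 34.2% below, where the red cell genes lie. No list was set against these shares by a test. The part of blood, vessels or choroid plexus in the levels of Mir150 and Mir146 was not tested.

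**Figure D4:**
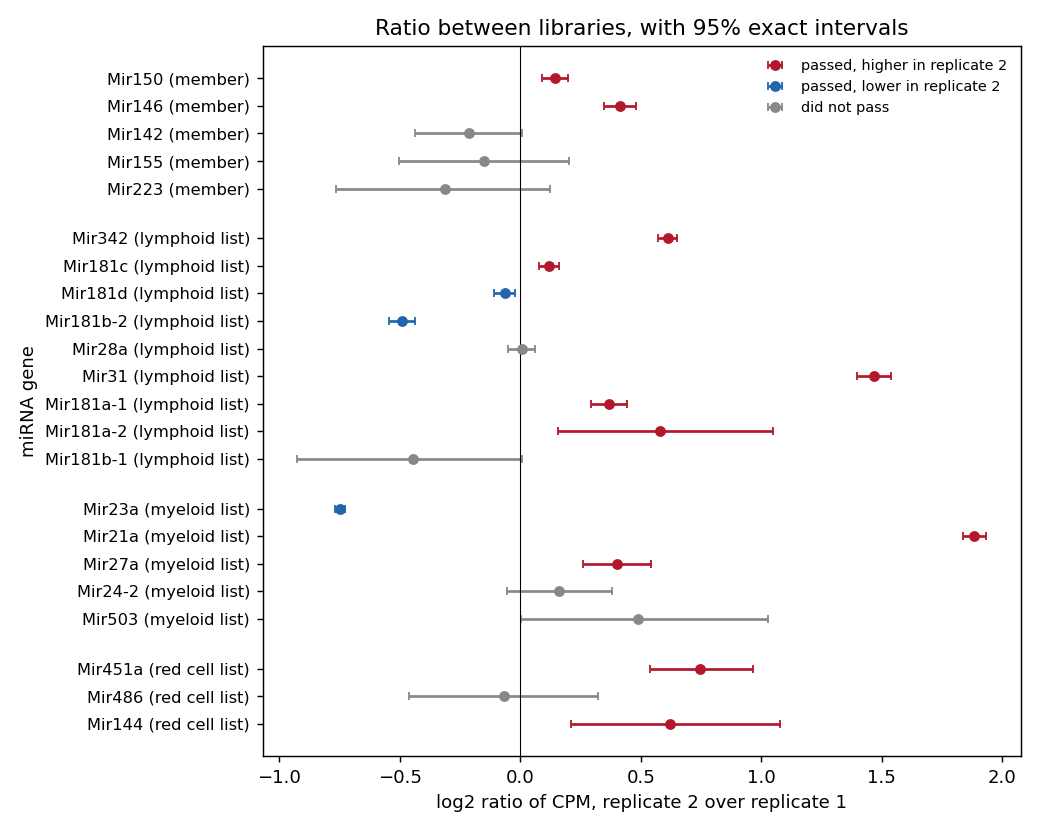
Log2 ratio of CPM, replicate 2 over replicate 1, with 95% exact intervals as bars for the tested immune-cell miRNA genes (members) and the tested genes of the lymphoid, myeloid and red cell lists, coloured by the outcome of Fisher's exact test. Among the members Mir146 (0.41) and Mir150 (0.14) lie above 0 and Mir142, Mir155 and Mir223 below. In the red cell list Mir451a (0.75) and Mir144 (0.62) lie above 0 and Mir486 (-0.07) below. The widest range is in the myeloid list, with Mir21a at 1.89 and Mir23a at -0.75.

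The genes nearest to each member in level were found by the Euclidean distance of log2(CPM + 0.5) over the 2 libraries, among the 420 tested genes. Mir142 lay closest to Mir190a and Mir491, at distances of 0.0455 and 0.0593. Mir155 lay closest to Mir3086 and Mir542, and Mir223 to Mir33 and Mir5099, at distances of 0.0811 to 0.155. Mir150 was nearest to Mir28a (distance 0.169) and then to Mir455, and Mir146 to Mir1983 and Mir34c (0.245 and 0.288). With 2 libraries this is likeness in level, not a shared profile.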

How the data were processed

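The deposited tables hold whole-number read counts per miRNA gene, not normalized, 1 table per library, made by the authors on mm10 with GENCODE M21, per the file headers. Aligner and trimming: not given in the sources used here. The roles of the 3 count columns are not named in the deposited tables. Of the columns for a single strand, the column with the larger total was taken as sense and used. In replicate 2, 48.4% of reads mapped to several places, 11.2% were unmapped and 3.69% fell outside the annotated miRNA genes. In replicate 1 these shares were 45.9%, 11.8% and 3.60%. Such reads are given to no miRNA gene and were left out, so a miRNA with copies is undercounted. All 2202 identifiers matched GENCODE M21.

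CPM used the sum of sense counts. Intervals are Wilson for levels and exact binomial for ratios at 95%; they and the limit of 3 counts for a count of 0 cover counting error alone, because reads copied by amplification do not stand for separate molecules. Fisher's exact test (scipy 1.17.1) used a minimum of 10 counts, an adjusted threshold of 0.05 and log2(CPM + 0.5). The test was tried on simulated counts with counting error alone. Such counts lack the spread between replicates, so they cannot show how the test behaves on these libraries. Scaling alternatives and the spread came from edgeR 4.0.16 (TMM, intercept-only design) and DESeq2 1.42.0; RNAfold 2.7.2 folded hairpins. Genes named are the 6 members, a gene overlapping them, the genes of the marker lists and the 2 tested genes nearest in level. The members and lists were chosen with earlier results of these data known.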

Additional observations from a re-analysis of the deposited data

Results flagged for a closer look

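The antisense column, which no comparison used, was examined only for the 6 members and Mir142b. Among these, Mir142b alone had more than 3 antisense counts. Mir142b had 366 antisense counts in replicate 2 and 321 in replicate 1, while its sense column was at 0 in both libraries. These numbers equal the sense counts of Mir142 in each library, whose hairpin lies inside that of Mir142b on the other strand, so they are the same reads counted from the other side. No group had the 4 samples needed to look for an outlying library.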

How the results depend on the processing

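Mir146 and Mir150 passed as higher in replicate 2 under all alternatives that gave a test. These were the column without regard to strand, TMM and DESeq2 size factors, both other totals and the 4 other count filters. Both other pseudocounts changed the ratio only and left the test as it was. The log2 ratio ran from 0.34 to 0.46 for Mir146 and from 0.07 to 0.19 for Mir150. Mir142 passed as lower when all reads of the table formed the total (a log2 ratio of -0.29 with adjusted p = 0.0162, Fisher's exact test), which makes 1 member lower; over its alternatives the adjusted p ran from 0.0162 to 0.414. Without regard to strand Mir142 had no ratio: its mean level and its ratios to Mir150 and Mir223 were 0, 2 of 6 members stayed at their place in the order, and Mir155 and Mir150 averaged 28.7 and 1151 CPM. With the most abundant gene left out of the total, the mean levels were 2187 CPM for the members together, 75.5 for Mir142, 2.48 for Mir146b, 30.2 for Mir155 and 1213 for Mir150. With all reads as the total they were 720.8 CPM together, 25.0 for Mir142, 278 for Mir146, 0.816 for Mir146b, 10.01 for Mir155, 400.1 for Mir150 and 6.41 for Mir223. These shifts follow from the smaller or larger total. Of the 159 alternative values, 139 were labelled as the same. For this a log2 ratio had to keep its direction and side of the threshold, and a level or pair ratio to move by less than the spread. Counts of genes or members had to stay of similar size. Leaving out 1 replicate left the other library's own level, which the text gives. With 2 libraries such a level always lies within the spread of the mean, so it could not be labelled as moved. No paired analysis was possible because there is 1 group. Counts of 90 or fewer leave Mir223 and Mir146b the widest intervals.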

Other observations

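The hairpins of 5 of the genes were folded with RNAfold and set beside the 1005 hairpins of the RefSeq table. Mir142, Mir146, Mir155 and Mir223 had folding energies of -42.0, -40.8, -41.8 and -40.0 kcal/mol per 100 bases, against a median of -40.6 over the table. Mir146b, the gene with the fewest counts, had -36.6 kcal/mol per 100 bases and was more stable than 33.5% of the hairpins. Its GC content was 55.0%, above the median of 51.7%, whereas Mir146, Mir142 and Mir155 lay at 40.0%, 42.2% and 43.1% and Mir223 at 50.0%. These are descriptions of the reference sequences, and no relation to the counts was tested.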
